A study of Mus musculus with 2 samples.

Results

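The 38 genes described here encode parts of the lysosome, 16 of them the vacuolar H+-ATPase (V-ATPase) with its accessory proteins and 22 the membrane proteins, lumenal proteins and transcription factors that go with it. They were chosen by symbol from a list of lysosomal genes that leaves out the cathepsins and the osteoclast V-ATPase subunit Atp6v0d2, and all 38 were found among the 46095 genes of the count table. RNA sequencing compared a TIPE1-KO library with a WT library, both from bone marrow-derived macrophages of C57BL/6 mice. These are macrophages grown from marrow progenitors, here for 5 days in DMEM with 100 ng/ml M-CSF, the growth factor of the lineage. The TIPE1-KO mice are described as LyzM-Cre with floxed Tipe1 alleles and labelled TIPE1-/-, and the WT mice are described as Tipe1f/f and labelled wild type. LyzM-Cre expresses Cre from a lysozyme locus, so deletion is limited to myeloid cells and can differ between cells. TIPE1 is the product of Tnfaip8l1, and the series title gives macrophage polarization as the subject. Each genotype had 1 library, so no value below has a replicate check and no p-value was computed. The age of the mice and how many went into a library are not stated.

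Lysosomes are acidic compartments that break down proteins, lipids, glycans and nucleic acids brought in by endocytosis, phagocytosis and autophagy. The V-ATPase fills them with protons: its V1 sector, on the cytosolic side, hydrolyses ATP and turns a rotor, and its V0 sector, in the membrane, carries the protons. Soluble hydrolases work in the acidic lumen, heavily glycosylated proteins such as LAMP1 line the membrane, and transcription factors of the MiT family, TFEB among them, switch on many of these genes together. Macrophages are rich in lysosomes, since digestion of engulfed material is one of their main tasks.

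The TIPE1-KO library had 15815956 counted reads and the WT library 11782664. Counts were scaled for depth to CPM. Tnfaip8l1 had 3 reads in the TIPE1-KO library against 21 in the WT library, a ratio of 0.112 (0.0214 to 0.375), where the parentheses here and below give the 95% counting interval. The 3 reads equal the detection floor used here (0.194 CPM in TIPE1-KO), and Tnfaip8l1 fell under the filter of a mean of at least 1 CPM. Which exons Cre removes is not stated, and reads from other exons would not show the deletion. All 10 macrophage markers passed the filter and summed to 17350 CPM in TIPE1-KO and 22640 CPM in WT. The largest was Lyz2, the locus that carries Cre, at 8028 CPM in TIPE1-KO and 14958 CPM in WT, and the 9 others summed to 9321 CPM in TIPE1-KO and 7681 CPM in WT. Of the 10, 5 intervals lay above 1 and 5 below. The log2 ratios of TIPE1-KO over WT of the 9 without Lyz2 ran from -0.73 to 1.26, so single markers differed in both directions. The M-CSF receptor gene Csf1r, nearer to level, stood at 2414 CPM in TIPE1-KO and 2646 CPM in WT. Markers of other cells differed: 20 of 21 tested stromal markers were at least 2-fold lower in TIPE1-KO, and the summed level of the 22 listed was 208 CPM against 2345 CPM in WT, with Tagln at 0 in both. The 10 neutrophil markers summed to 505 CPM in TIPE1-KO and 705 CPM in WT, the 6 B cell markers to 2.59 CPM in TIPE1-KO and 14.7 CPM in WT, and the 9 osteoclast markers to 627 CPM in TIPE1-KO and 442 CPM in WT. Of these last, Atp6v0d2 itself gave 421 CPM in TIPE1-KO and 254 CPM in WT and the other 8 gave 206 CPM in TIPE1-KO and 188 CPM in WT, with Calcr at 0 in both and Ocstamp and Oscar at 1 read or fewer. The part of these cells in the values below was not tested. In a bulk library, fewer cells of a type and less RNA per cell cannot be told apart. The 4 members on the chromosome of Tnfaip8l1 (chromosome 17) lay 8.4 Mb or more from it, and the 2 on that of Lyz2 (chromosome 10) lay 11.6 Mb or more away.

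As a group, the 38 genes made up the same share of the library in both genotypes. They held 3.264% of the counted reads (3.255 to 3.273) in TIPE1-KO and 3.263% (3.253 to 3.274) in WT. Psap, the prosaposin gene, alone gave 39.5% of these reads in TIPE1-KO and 39.4% in WT, and without it the shares of the library were 1.974% and 1.978%. These shares are of total counts. In scaled CPM the 38 genes summed to 33460 in TIPE1-KO and 31840 in WT, a ratio of 1.05. All 38 passed the filter of a mean of at least 1 CPM. A gene was called when its CPM ratio reached a given fold and its counting interval lay on 1 side of 1. At 2-fold, 1 of the 38 was called higher in TIPE1-KO and 0 lower, against 2.59% and 4.78% of all 12495 tested genes. At 1.5-fold, 1 of the 38 was called higher in TIPE1-KO (Glb1, 2.63% of the list), where 6.47% of all tested genes were. None of the 38 was called 1.5-fold lower, against 7.23% of all tested genes. The lowest threshold was a ratio of 5 to 4 in either direction, and there 4 of the 38 (10.5%) were called higher (Glb1, Atp6v0a1, Atp6v1b2 and Atp6v1h) and 0 lower, against 12.1% and 11.4% of all tested genes. Below, a gene said to be called, with no fold beside it, passed this threshold. The shares of the members called were thus at or under those of the table as a whole. With total counts for scaling, 3 members were called higher at 5 to 4, since Atp6v1h then had a ratio of 1.23, and the split over all tested genes was 1168 higher and 1873 lower, against 1514 and 1427 under the TMM scaling used here.

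**Figure D1:**
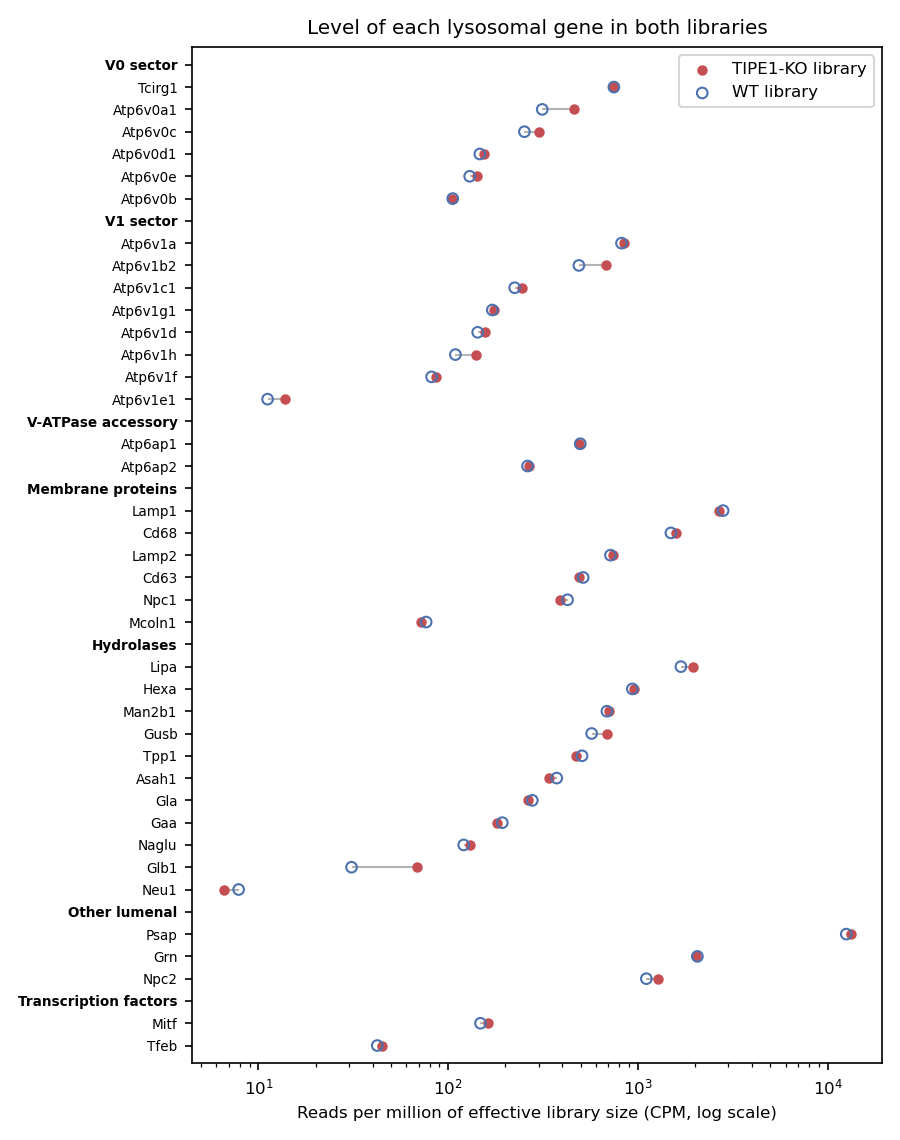
Level of each of the 38 genes in CPM (log axis) in the TIPE1-KO library (filled red) and the WT library (open blue), grouped by role; each point is 1 library and a grey line joins the pair. Most pairs lie on top of each other, while Glb1, Atp6v0a1 and Atp6v1b2 are visibly apart, and Psap has the most reads.

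The median log2 ratio of TIPE1-KO over WT, taken after adding 0.5 CPM to both values, was 0.06 over the 38 genes and 0.01 over all tested genes. The members are abundant, however, and 32 of 38 averaged 100 CPM or more. Among all 2115 genes that abundant the median was 0.08, and it was 0.05 over those 32 members. Of these 32, 3 were called higher at 5 to 4 and 0 lower, against 16.8% and 5.2% of the abundant genes, and 0 were called at 1.5-fold, against 6.43% higher and 1.75% lower. Of the 38 counting intervals, 17 (44.7%) lay above 1, 7 below 1, and 14 held 1. Over all tested genes 22.8% of the intervals lay above 1 and 18.4% below, and over the abundant genes the shares were 50.4% and 21.1%. At these depths an interval can leave out 1 for differences of a few percent, so size is given with each value below. Under the 5 scalings tried, the ratios of 8 members (Atp6ap2, Atp6v0b, Atp6v1a, Atp6v1g1, Hexa, Lamp2, Man2b1 and Tcirg1) fell on both sides of 1.

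**Figure D2:**
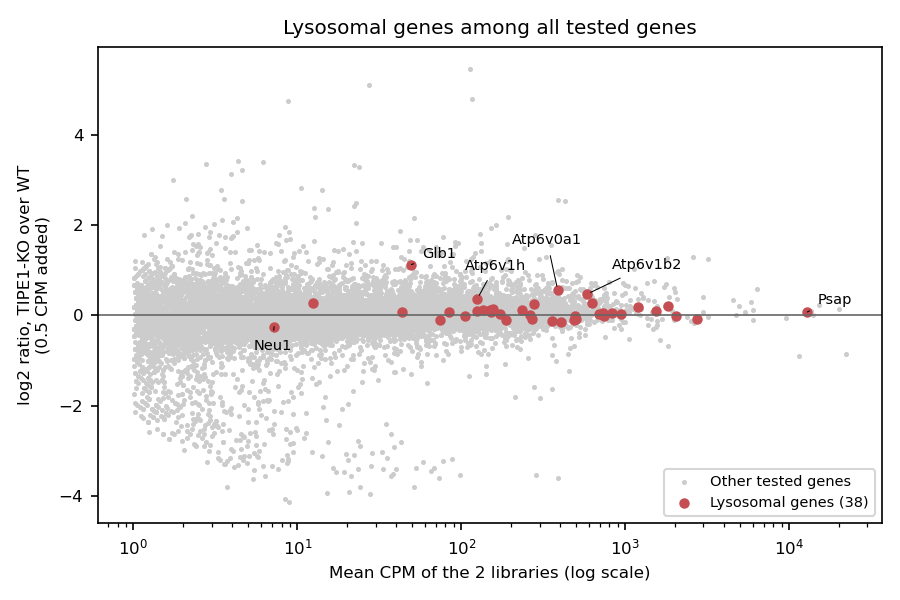
log2 ratio of TIPE1-KO over WT (0.5 CPM added to each value) against the mean CPM of the libraries (log axis) for the 38 lysosomal genes (red) and the other tested genes (grey). The red points run close to 0 across the whole range of levels, from Neu1 at the low end to Psap at the high end, and Glb1 stands out at a log2 ratio of 1.13.

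Among the 6 genes of V0 subunits, which form the proton channel and its support, only the a1 subunit gene was called (16.7%, higher). Over all tested genes 12.1% were called higher and 11.4% lower, so on this short list the count is not read as a trait. Atp6v0a1 (GRCm38 chromosome 11, 101009452 to 101063719) encodes 1 of 4 alternative a subunits, the membrane arm that brings protons to the rotor. It stood at 462 CPM in TIPE1-KO and 313 CPM in WT, a ratio of 1.47 (1.42 to 1.53). Tcirg1, which encodes the a3 subunit used by osteoclasts and by macrophage lysosomes, had the highest level of the V0 genes per kilobase of annotated exon, at 162 CPM in both libraries, and stood at 743 CPM in TIPE1-KO and 747 CPM in WT. Its ratio was 0.995 (0.968 to 1.02), so a3 was level while a1 was higher. Per kilobase of the longest coding transcript, Tcirg1 was at 244.5 CPM in TIPE1-KO and 245.8 CPM in WT. By that length Atp6v0c was at 253.2 CPM in TIPE1-KO and 213.3 CPM in WT, so the lead of Tcirg1 in TIPE1-KO depended on the length used. The proteolipid genes, whose products make the rotating ring in the membrane, gave a ratio of 1.19 (1.13 to 1.24) for Atp6v0c, at 299.5 CPM in TIPE1-KO and 252 CPM in WT, and of 0.997 (0.926 to 1.07) for Atp6v0b, at 105.4 CPM in TIPE1-KO and 105.7 CPM in WT. Atp6v0c is less certain than the others, as the annotated processed pseudogene Atp6v0c-ps2 has 99.8% identity to it over 465 bases and held 344 reads in TIPE1-KO and 273 in WT. The remaining V0 genes, Atp6v0d1 for the d1 subunit and Atp6v0e for the small e subunit, had ratios of 1.05 (0.990 to 1.12) and 1.09 (1.02 to 1.16). Atp6v0d1 stood at 155 CPM in TIPE1-KO and 147 CPM in WT, and Atp6v0e at 142 CPM in TIPE1-KO and 129.9 CPM in WT.

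The reads of alternative isoforms of 1 subunit can be compared within a library, which does not depend on how the libraries are scaled. Atp6v0a1 took 36.4% of the a subunit reads (35.7 to 37.1) in TIPE1-KO and 28.0% (27.2 to 28.7) in WT. Tcirg1 took 58.6% (57.9 to 59.3) in TIPE1-KO and 66.7% (65.9 to 67.5) in WT. The a3 gene thus led in both libraries, and the a1 share was larger in TIPE1-KO by more than the counting error. Atp6v0a2, which encodes an a subunit found on Golgi and endosomes, took 4.97% in TIPE1-KO and 5.34% in WT, with overlapping intervals. Atp6v0a4, the gene of a kidney isoform, had 0 reads in both, which allows a share of up to 0.0153% in TIPE1-KO and 0.0222% in WT. Per kilobase of annotated exon, the a1 share was 29.2% in TIPE1-KO and 21.8% in WT. The same comparison for the d subunit brings in Atp6v0d2, which is not among the 38 and is known from osteoclasts and macrophages. Atp6v0d2 took 73.1% of the d subunit reads (72.2 to 74.1) in TIPE1-KO and 63.4% (62.0 to 64.7) in WT, at 421 CPM in TIPE1-KO and 254 CPM in WT, a ratio of 1.66 (1.59 to 1.73). Of the 5 other osteoclast markers that passed the filter, 2 were called higher. Acp5 had 1056 reads in TIPE1-KO and 423 reads in WT, and Dcstamp 64 reads in TIPE1-KO and 10 reads in WT. These reads are not scaled for depth. After scaling both were past 1.5-fold and only Dcstamp past 2-fold, at 4.15 CPM in TIPE1-KO and 0.828 CPM in WT. Ctsk was called lower, at 376 reads in TIPE1-KO and 373 reads in WT (ratio 0.789, 0.682 to 0.913), and Itgb3 and Nfatc1 were uncalled, with ratios of 1.23 (1.06 to 1.43) and 0.809 (0.746 to 0.877). The part of osteoclast-like cells in the d subunit shares was not tested.

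**Figure D3:**
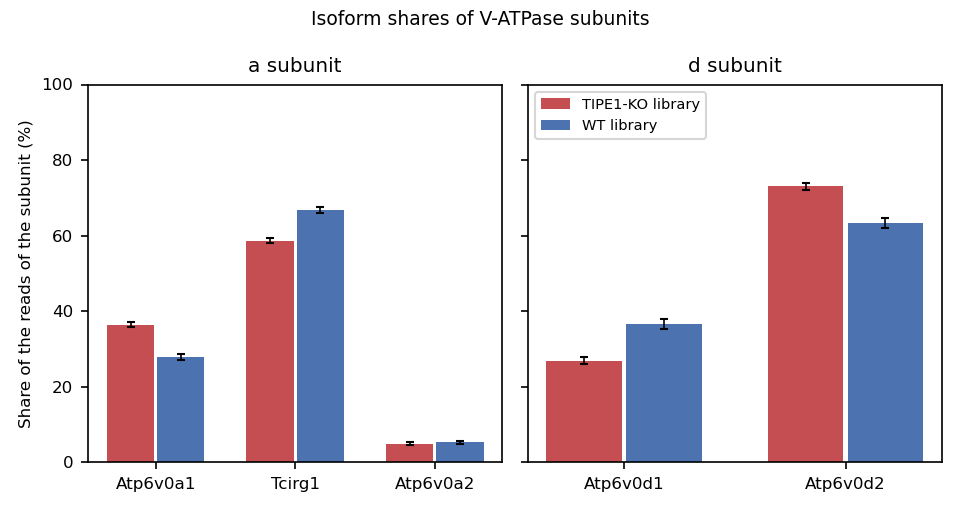
Share of the reads of the a subunit (left) and the d subunit (right) taken by each isoform gene, in percent, in the TIPE1-KO library (red) and the WT library (blue); bars start at 0 and error bars are exact 95% binomial intervals, which cover counting error only. The a1 gene Atp6v0a1 and the d2 gene Atp6v0d2 hold larger shares in TIPE1-KO than in WT, while Atp6v0a2 is nearly equal. Atp6v0a4 had 0 reads and is not drawn.

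Other subunits had nearly all their reads on a single isoform gene. Atp6v1b2 was the only B subunit gene with reads, with 10464 in TIPE1-KO and 5905 in WT and 0 for Atp6v1b1, an isoform of kidney and inner ear. Atp6v1c2, an alternative C subunit gene, had 1 read in each library, and Atp6v1e2, Atp6v1g2 and Atp6v1g3, alternative E and G subunit genes known from testis, brain and kidney, had 0 in both. Atp6v0e2 had 10 reads in TIPE1-KO and 3 in WT.

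In the V1 sector, 2 of 8 genes (25%) were called higher at 5 to 4 and 0 lower. Over all tested genes the shares were 12.1% and 11.4%. The list is short, so these counts are not read as a trait of the sector. Atp6v1b2 (chromosome 8, 69088646 to 69113711) encodes the B2 subunit, which alternates with the A subunit in the ring that binds and hydrolyses ATP. It stood at 678 CPM in TIPE1-KO and 489 CPM in WT, a ratio of 1.39 (1.34 to 1.43). Its partner Atp6v1a, the gene of the catalytic A subunit, stood at 850.0 CPM in TIPE1-KO and 820 CPM in WT. Per kilobase of annotated exon Atp6v1b2 was at 128 CPM in TIPE1-KO and 92.2 CPM in WT. Atp6v1a was at 141 CPM in TIPE1-KO and 136 CPM in WT by that length. Per kilobase of the longest coding transcript Atp6v1b2 was at 240 CPM in TIPE1-KO and 173 CPM in WT. By this other length Atp6v1a was at 201 CPM in TIPE1-KO and 194 CPM in WT. Which gene of the pair led in TIPE1-KO thus depended on the length used. The ratio for Atp6v1a was 1.04 (1.01 to 1.06), so the genes of the paired A and B subunits differed in their ratios. Within a library this reads as 10464 Atp6v1b2 reads to 13114 Atp6v1a reads in TIPE1-KO and 5905 to 9900 in WT. Atp6v1h (chromosome 1, 5070018 to 5162529) encodes the H subunit, which is needed for activity and, in yeast, holds V1 silent when it is detached. It stood at 141 CPM in TIPE1-KO and 109 CPM in WT, a ratio of 1.29 (1.21 to 1.38).

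The other V1 genes were nearer to 1. The stalk gene Atp6v1c1 (C subunit), the rotor genes Atp6v1d (D) and Atp6v1f (F) and the stator gene Atp6v1g1 (G) had ratios between 1.03 and 1.09, with levels between those of Atp6v1c1, at 244 CPM in TIPE1-KO and 224 CPM in WT, and of Atp6v1f, at 86.6 CPM in TIPE1-KO and 81.8 CPM in WT. Atp6v1e1, whose E subunit pairs with G in the stator, gave 212 reads in TIPE1-KO and 135 in WT, or 13.7 CPM in TIPE1-KO and 11.2 CPM in WT, and its ratio of 1.23 had an interval (0.986 to 1.54) that held 1. Per kilobase of annotated exon Atp6v1e1 was at 3.34 CPM in TIPE1-KO and 2.72 CPM in WT, while its partner Atp6v1g1 was at 154 CPM in TIPE1-KO and 151 CPM in WT. Since the counting settings are not stated, a low listed value for Atp6v1e1 may be low expression or a count that missed reads, and these cannot be told apart. The accessory genes Atp6ap1 and Atp6ap2, whose products take part in V-ATPase assembly, had ratios of 0.985 (0.952 to 1.02) and 1.01 (0.968 to 1.06). Atp6ap1 stood at 489.7 CPM in TIPE1-KO and 497 CPM in WT, and Atp6ap2 at 266 CPM in TIPE1-KO and 262 CPM in WT. Over the 16 V-ATPase genes the median log2 ratio was 0.10, and the summed level was 5007 CPM in TIPE1-KO and 4504 CPM in WT. Of their intervals, 8 (50%) lay above 1, 0 below and 8 held 1. Of the 16, 14 averaged 100 CPM or more. Over all 2115 genes that abundant, the median was 0.08, and 50.4% of the intervals lay above 1 and 21.1% below. The share above 1 was thus near that of the abundant genes.

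**Figure D4:**
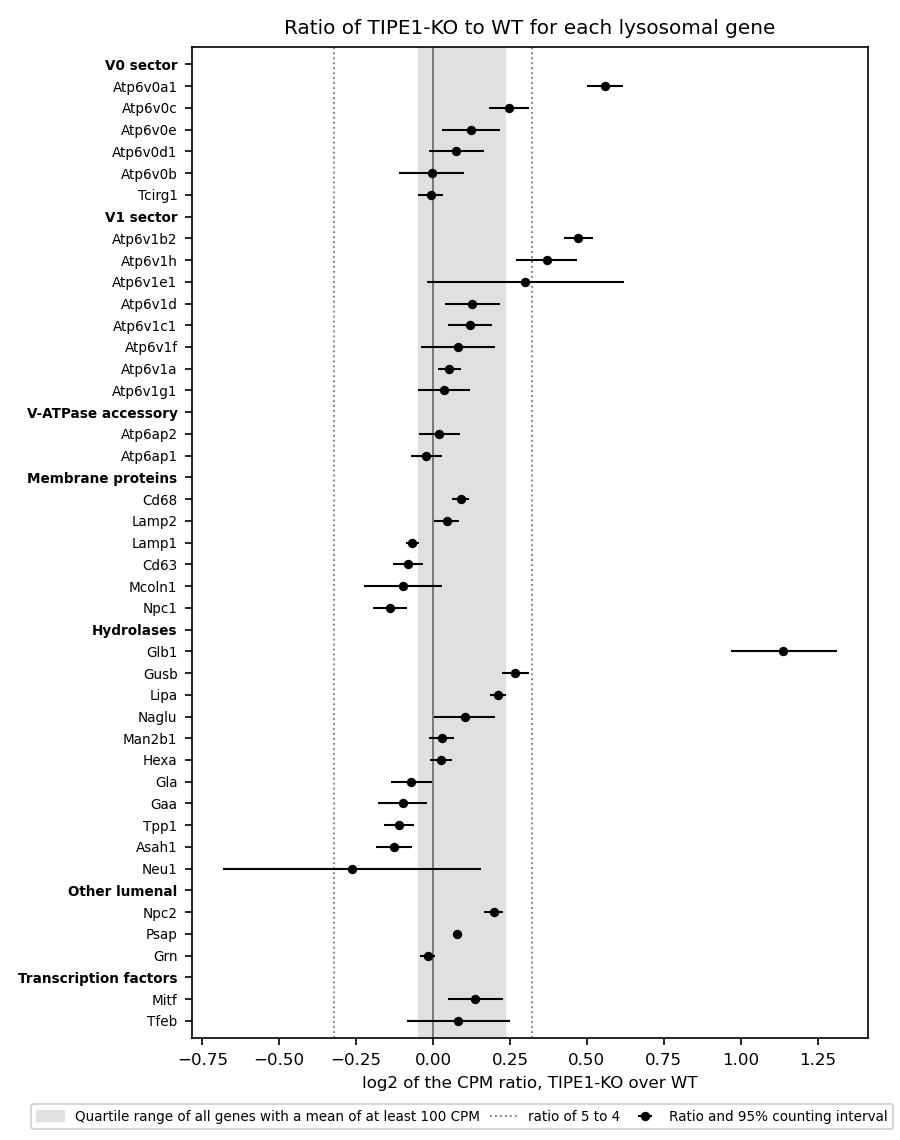
log2 of the CPM ratio of TIPE1-KO over WT for each of the 38 genes, grouped by role, with exact 95% counting intervals as bars; dotted lines mark ratios of 5 to 4, and the grey band is the quartile range (-0.05 to 0.23) of the 2115 abundant genes. Glb1, Atp6v0a1, Atp6v1b2 and Atp6v1h lie right of the dotted line, no gene is called left of it, and Neu1 and Atp6v1e1 have the widest intervals.

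None of the 6 membrane protein genes was called in either direction. Over all tested genes 12.1% were called higher and 11.4% lower, so on 6 genes this is not read as a trait of the group. Lamp1, the gene of an abundant glycoprotein that coats the inner face of the lysosomal membrane, had the most reads of the group, at 2685 CPM in TIPE1-KO and 2813 CPM in WT, a ratio of 0.954 (0.941 to 0.968). Lamp2, whose products coat the membrane and serve autophagy, stood at 739 CPM in TIPE1-KO and 717 CPM in WT. Cd68, a macrophage marker of late endosomes and lysosomes, stood at 1589 CPM in TIPE1-KO and 1493 CPM in WT, the largest ratio of the group at 1.06 (1.04 to 1.09). Npc1, which moves cholesterol out of the lysosome, gave the smallest ratio of the group, 0.907 (0.874 to 0.942), at 387 CPM in TIPE1-KO and 426 CPM in WT. Cd63, a tetraspanin gene, had a ratio of 0.946 (0.914 to 0.978), and its annotated pseudogene Cd63-ps held 617 reads in TIPE1-KO and 538 in WT. Mcoln1, the gene of the calcium channel TRPML1, stood at 71.6 CPM in TIPE1-KO and 76.6 CPM in WT, with an interval that held 1. The 6 ratios thus ran from 0.907 to 1.06, with a median log2 ratio of -0.07.

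Of the 11 hydrolase genes, Glb1 was the only one called (9.09%, higher). Over all tested genes 12.1% were called higher and 11.4% lower, so this count does not set the short list apart. Glb1 (chromosome 9, 114401076 to 114474898, plus strand) encodes beta-galactosidase, which removes terminal galactose from gangliosides and keratan sulfate and whose activity is widely used as a stain for senescent cells. It had 1052 reads in TIPE1-KO and 374 in WT, or 68.2 CPM in TIPE1-KO and 31.0 CPM in WT, a ratio of 2.20 (1.96 to 2.48), and the range over the scalings was 2.10 to 2.21. The Tmppe gene overlaps 5.5% of the annotated Glb1 exon bases on the same strand and was level, at 56.2 CPM in TIPE1-KO and 55.3 CPM in WT (ratio 1.02, 0.917 to 1.13). The neighbouring gene Crtap stood at 40.2 CPM in TIPE1-KO and 33.2 CPM in WT, and the related gene Glb1l, which encodes a beta-galactosidase-like protein, at 16.9 CPM in TIPE1-KO and 11.3 CPM in WT with a ratio of 1.5 (1.21 to 1.86). Tmppe, Crtap and Glb1l were looked up after the Glb1 value was seen. The 250 bases before the RefSeq start of Glb1 (GRCm38.p6, chr9:114400828-114401077, plus strand) are shown because Glb1 was the single member past 1.5-fold, and the capitals mark the single CACGTG word, the E-box bound by MiT factors and many others:
Glb1: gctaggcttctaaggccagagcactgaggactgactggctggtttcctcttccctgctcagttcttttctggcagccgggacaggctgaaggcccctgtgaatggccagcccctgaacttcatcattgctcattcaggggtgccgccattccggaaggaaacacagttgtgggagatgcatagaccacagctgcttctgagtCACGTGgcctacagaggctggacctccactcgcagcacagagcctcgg

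The remaining hydrolases were uncalled. Gusb, the beta-glucuronidase gene, came next with a ratio of 1.20 (1.17 to 1.24) at 687 CPM in TIPE1-KO and 571 CPM in WT. Lipa, which encodes the acid lipase that frees cholesterol and fatty acids from lipoproteins, had the most reads of the hydrolases, at 1953 CPM in TIPE1-KO and 1686 CPM in WT with a ratio of 1.16 (1.14 to 1.18). Both intervals lay above 1 under the TMM scaling. Hexa (ganglioside breakdown), Man2b1 (an alpha-mannosidase) and Naglu (heparan sulfate breakdown) had ratios from 1.02 to 1.07. Hexa stood at 952 CPM in TIPE1-KO and 935 CPM in WT, Man2b1 at 700.4 CPM in TIPE1-KO and 687 CPM in WT, and Naglu at 129.7 CPM in TIPE1-KO and 121 CPM in WT. Naglu lies 6293 bases downstream of Atp6v0a1 and had a ratio of 1.07 against the 1.47 of that gene. Gaa (glycogen), Gla (glycolipids), Tpp1 (a tripeptidyl peptidase) and Asah1 (acid ceramidase) had ratios from 0.916 to 0.952, each with an interval below 1. The lowest of these was Asah1, at 342 CPM in TIPE1-KO and 374 CPM in WT, while Tpp1 stood at 470.3 CPM in TIPE1-KO and 508 CPM in WT. The lowest ratio of all 38 was that of Neu1, a sialidase gene, at 0.832, but with 101 reads in TIPE1-KO and 95 in WT its interval of 0.623 to 1.11 held 1. As for Atp6v1e1, the level of Neu1 was low, at 6.55 CPM in TIPE1-KO and 7.87 CPM in WT, and the same limit applies.

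None of the 3 genes of lumenal proteins that are not hydrolases was called. With 3 genes, and 12.1% higher and 11.4% lower over all tested genes, this is not read as a trait. Psap, whose product is cut into the saposins that help hydrolases reach glycolipids, stood at 13228 CPM in TIPE1-KO and 12541 CPM in WT, a ratio of 1.055 (1.048 to 1.062). The range over the scalings was 1.004 to 1.061. Its lower end, with total counts, lay below the interval, which covers counting error only. Npc2, which hands cholesterol to NPC1, had the largest ratio of the 3, 1.15 (1.12 to 1.17), at 1271 CPM in TIPE1-KO and 1109 CPM in WT. Its ratio was above 1 while that of Npc1 was below, both uncalled. Grn, the progranulin gene, had the smallest ratio, 0.988 (0.972 to 1.0), at 2035 CPM in TIPE1-KO and 2059 CPM in WT. Per kilobase of annotated exon, Psap ranked at the top of the 38 in both libraries at 4821 CPM in TIPE1-KO and 4570 CPM in WT, ahead of Cd68 at 1264 CPM in TIPE1-KO and 1188 CPM in WT, Lamp1 at 1004 CPM in TIPE1-KO and 1052 CPM in WT, Grn at 586 CPM in TIPE1-KO and 593 CPM in WT and Hexa at 477 CPM in TIPE1-KO and 469 CPM in WT. By this length the order of the leading 5 was the same in both libraries. Per kilobase of the longest coding transcript Psap also led in both, but the order below it changed. By that length Cd68 was at 1292 CPM in TIPE1-KO and 1214 CPM in WT. Lamp1 was at 1205 CPM in TIPE1-KO and 1262 CPM in WT. Lipa, at 658 CPM in TIPE1-KO and 568 CPM in WT, was then ahead of Hexa, at 477 CPM in TIPE1-KO and 469 CPM in WT.

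The 2 transcription factor genes were uncalled, where 12.1% of all tested genes were called higher and 11.4% lower. With 2 genes this is not read as a trait. Mitf stood at 163 CPM in TIPE1-KO and 148 CPM in WT, a ratio of 1.10 (1.04 to 1.17). Tfeb, the gene of the factor best known for lysosomal genes, stood at 44.8 CPM in TIPE1-KO and 42.3 CPM in WT, a ratio of 1.06 with an interval (0.943 to 1.19) that held 1. Of the reads of the 4 MiT family genes, Tfeb took 10.3% (9.62 to 11.1) in TIPE1-KO and 10.9% (9.99 to 11.8) in WT. Tfe3 took 48.7% (47.5 to 49.9) in TIPE1-KO and 47.5% (46.1 to 49.0) in WT, and Mitf 37.6% (36.5 to 38.8) in TIPE1-KO and 38.03% (36.6 to 39.4) in WT, so these shares had overlapping intervals. RNA levels do not show where these factors sit in the cell, on which their activity is known to depend.

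The members were chosen by symbol and not by promoter sequence, but TFEB is already known for lysosomal genes. A larger share of its binding word among such genes is thus no independent support for the group. RefSeq promoter windows, from 250 bases before to 50 after a gene's start, were at hand for 32 of the 38 genes, and were searched for the palindromes TCACGTGA, the core of the element TFEB is known to bind, and CACGTG, which it contains. Both words read the same on either strand. TCACGTGA was found for 5 of the 32 (15.6%), against 1.12% of all 27025 genes with a window and 2.22% of those tested here, and for 10 of 93 other lysosomal genes (10.8%). CACGTG was found for 10 of the 32 (31.2%), against 8.09% of all genes, 12% of those tested and 23 of 93 other lysosomal genes (24.7%). The 5 members with TCACGTGA were Atp6v0d1, Atp6v0e, Atp6v1a, Gla and Mcoln1, and CACGTG alone was in the windows of Atp6v0b, Gaa, Glb1, Lamp1 and Naglu. Windows of 30 bases from GRCm38.p6 are shown for the 5 genes, on the strand of the gene with TCACGTGA in capitals, because it is the sequence feature they share:
Atp6v0d1 (chr8:105566050-105566079, minus strand): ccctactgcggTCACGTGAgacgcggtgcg
Atp6v0e (chr17:26676387-26676416, plus strand): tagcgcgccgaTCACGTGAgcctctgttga
Atp6v1a (chr16:44139373-44139402, minus strand): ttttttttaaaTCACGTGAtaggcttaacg
Gla (chrX:134601182-134601211, minus strand): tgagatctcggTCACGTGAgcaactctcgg
Gla (chrX:134601215-134601244, minus strand): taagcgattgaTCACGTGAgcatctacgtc
Mcoln1 (chr8:3500462-3500491, plus strand): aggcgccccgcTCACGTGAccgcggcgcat
None of these 5 genes was called. Their log2 ratios ran from -0.10 to 0.12 with a median of 0.05. Over all 10 members with CACGTG the range was -0.10 to 1.13, with a median of 0.02. The top of that range was Glb1, which was called. The 22 members with neither word ran from -0.25 to 0.56 with a median of 0.08. No window was at hand for Asah1, Atp6v1b2, Atp6v1c1, Atp6v1g1, Atp6v1h and Npc1. The called genes Atp6v1b2 and Atp6v1h could thus not be searched. A match is a description of the letters, not a binding site.

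The list of other lysosomal genes held 116 genes outside the 38, of which 107 passed the filter. At 5 to 4, 10 (9.35%) were called higher in TIPE1-KO and 9 (8.41%) lower, near the 12.1% and 11.4% of all tested genes, so these counts do not set the list apart. With total counts for scaling 9 were called higher and 13 lower. At 1.5-fold 3 (2.8%) were called higher and 1 lower, against 6.47% and 7.23% of all tested genes. Their median log2 ratio was 0.02. Of 34 tested hydrolases and related enzymes, 5 (14.7%) were called higher at 5 to 4 and 3 (8.82%) lower, again near the shares over all tested genes. The higher ones included Arsb, an arylsulfatase gene, with the largest ratio at 1.83 (1.57 to 2.13) and 37.2 CPM in TIPE1-KO and 20.4 CPM in WT, Plbd1 at 1.49, the acid phosphatase gene Acp2 at 1.47 (1.40 to 1.53) and 382 CPM in TIPE1-KO and 260.4 CPM in WT, and Ifi30, a thiol reductase gene of antigen processing, at 1.41. The remaining higher one was Gm2a, which encodes the GM2 activator that presents gangliosides to the HEXA enzyme, at 415 CPM in TIPE1-KO and 311 CPM in WT (ratio 1.34, 1.28 to 1.39). The 3 lower ones were Ppt1 (a thioesterase that removes fatty acids from proteins), Pla2g15 (a phospholipase) and Sgsh (a sulfatase of heparan sulfate), with ratios of 0.726, 0.735 and 0.737. Gm2a and these 3 were named after their values were seen.

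Of 31 tested membrane proteins outside the 38, 3 (9.68%) were called higher at 5 to 4 and 4 (12.9%) lower, near the 12.1% and 11.4% of all tested genes. Slc15a3, a peptide and histidine transporter gene, stood at 546 CPM in TIPE1-KO and 356 CPM in WT (ratio 1.54, 1.48 to 1.59), and Mcoln2, a channel related to Mcoln1, at 105 CPM in TIPE1-KO and 70.5 CPM in WT (1.49, 1.37 to 1.62). On the other side were Hgsnat, an acetyltransferase of heparan sulfate breakdown, at 118 CPM in TIPE1-KO and 165 CPM in WT (ratio 0.715, 0.670 to 0.762), and Slc36a1, an amino acid transporter gene, at 87.0 CPM in TIPE1-KO and 119.9 CPM in WT. The other called genes of this list, named after their values were seen, were Mfsd8, higher with a ratio of 1.29 on 197 reads in TIPE1-KO and 120 in WT, and Scarb2 and Mcoln3, lower with ratios of 0.746 and 0.739. Scarb2 encodes LIMP-2, the receptor that carries beta-glucocerebrosidase to the lysosome. Of the 3 mucolipin channel genes, Mcoln2 was thus called higher, Mcoln3 lower and the member Mcoln1 not at all.

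Genes that assemble or regulate the V-ATPase had 2 of 11 (18.2%) called higher at 5 to 4 and 1 (9.09%) lower. Over all tested genes the shares were 12.1% and 11.4%, so these counts do not set the short list apart. Dmxl1 and Dmxl2, which encode related subunits of the complex that joins V1 to V0, lay apart, with ratios of 1.33 (1.246 to 1.413) and 0.803 (0.755 to 0.854). Vma21, a V0 assembly factor gene, stood at 63.8 CPM in TIPE1-KO and 51.4 CPM in WT with a ratio of 1.24, and Rogdi had the smallest ratio, 0.637 (0.505 to 0.804), on 136 reads in TIPE1-KO and 167 in WT. Rnasek, a gene near the filter with 60 reads in TIPE1-KO and 14 in WT, was the other called higher, with a ratio of 3.35 (1.85 to 6.5), and was named after its value was seen. The 14 sorting and maturation genes, which include the receptor gene M6pr and the endoplasmic reticulum genes Cln6 and Cln8, held no called gene at 5 to 4, and these 3 had ratios from 1.15 to 1.19. Over the 14, 4 intervals lay above 1, 2 below and 8 held 1, and the log2 ratios ran from -0.18 to 0.24 with a median of 0.02. Of 16 tested MiT and mTORC1 genes only Mlst8 (6.25%) was called, lower, with a ratio of 0.774 (0.625 to 0.959). Lamtor5, Mtor and Tfe3 had ratios of 1.17, 1.15 and 1.14. Beside the 12.1% and 11.4% over all tested genes, the counts of these 14 and 16 genes are not read as traits either.

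**Figure D5:**
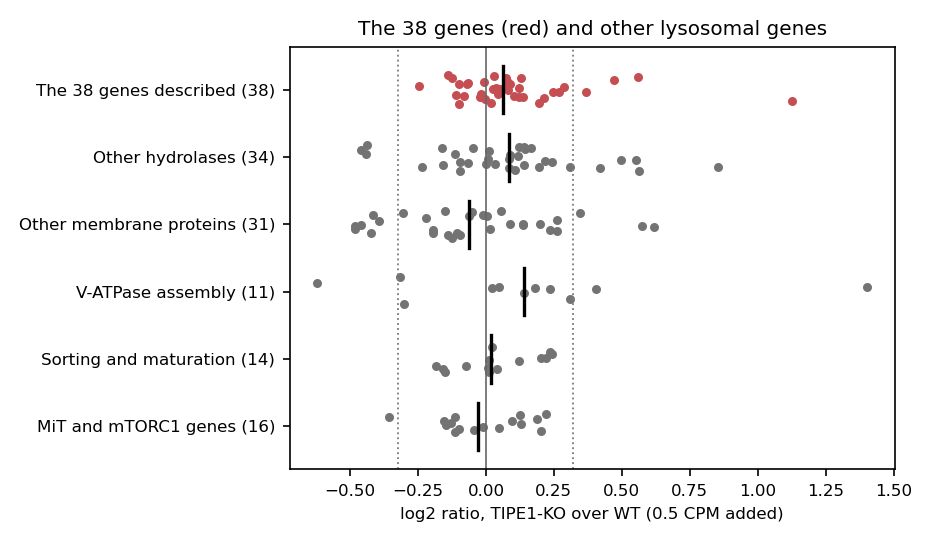
log2 ratio of TIPE1-KO over WT (0.5 CPM added) for the 38 genes (red) and for other lysosomal genes (grey) by list, with the number of tested genes in parentheses; vertical bars are medians, dotted lines mark ratios of 5 to 4, and points are spread vertically for sight only. The medians run from -0.06 for other membrane proteins to 0.14 for V-ATPase assembly genes, and most points lie between the dotted lines. The point farthest to the right is Rnasek, on 60 reads in TIPE1-KO and 14 reads in WT.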

How the data were processed

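Per the file headers, the deposited table holds read counts per gene symbol, with 1 column for each library. The submitters' processing notes name HISAT2 and the build GRCm38. The counting method, its annotation and its strand setting are not stated, and reads of overlapping genes or close copies can thus be misplaced. No row lacked a gene name.

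Counts were scaled to TMM effective library sizes over the whole table (edgeR 4.0.16, R 4.3.3). Log2 ratios used 0.5 added CPM, and 12495 genes whose mean reached 1 CPM were tested for size. Ratios carry exact Clopper-Pearson 95% intervals (scipy 1.17.1). Intervals and detection floors (3 counts: 0.194 CPM in TIPE1-KO, 0.248 CPM in WT) cover counting error only, and PCR copies of a molecule make them too narrow. With 1 library per genotype no model has residual degrees of freedom, so there is no p-value. The calculation was run on simulated counts that held counting error only. This checks the arithmetic and says nothing on variation between mice, cultures or library preparations. Exon and transcript lengths, positions and overlaps came from GENCODE M21 (GRCm38), and copies of at least 95% identity over 200 bases from BLAST+ 2.17.0. Promoter windows came from a RefSeq table of GRCm38.p6. Of the 38 members, 8 shared exon bases with another gene, at most 12.8% of their length, and 5 had such a copy (Atp6ap2, Atp6v0c, Atp6v1f, Atp6v1g1 and Cd63).

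The 38 genes, the lists and the thresholds were chosen with earlier results of these data known. All 38 members are named. Members called at a ratio of 5 to 4 and the highest and most different of each role are given in full, and of each other list up to 4 genes with the largest log2 ratio whose mean reached 5 CPM. A gene that this rule names is not reported here. The alternatives were 4 other scalings (DESeq2 1.42.0 for 1 of them), 2 other filters, 2 other added values and a stricter interval.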

Additional observations from a re-analysis of the deposited data

How the results depend on the processing

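No paired analysis was possible because there was a single library of each genotype. Of 367 recomputed values, 323 kept within their tolerance (1.5 times for a count, a counting interval for a ratio or a median) and 44 moved. A change of direction was looked for only among the called members, and 0 changed. The other scalings and added values shift these ratios too little for any other outcome, so this 0 is no support. With total counts as library size the median log2 ratio was -0.008 over the 38 genes and -0.045 over the 22 outside the V-ATPase, by construction a shift of -0.07 for all genes, and 1168 tested genes were called higher at 5 to 4 and 1873 lower, against 1514 and 1427 with TMM. With a mean of at least 10 CPM, 656 genes were called lower at 5 to 4, and 412 were 1.5-fold higher and 223 lower, against 808 and 904. With a stricter call, in which the interval's nearer bound passes 5 to 4, 798 genes were higher and 749 lower, with 5 lower among the other lysosomal genes. A filter at a mean of 100 CPM was chosen after seeing the data and tests fewer genes: it left 0 members past 1.5-fold, since Glb1 falls under it, and of other lysosomal genes 5 higher and 5 lower at 5 to 4, and 1 and 0 at 1.5-fold. Over all genes it left 355 higher and 110 lower at 5 to 4, and 136 and 37 at 1.5-fold. Shares per kilobase of exon, also added later, were 29.2% in TIPE1-KO and 21.8% in WT for Atp6v0a1, and 64.3% in TIPE1-KO and 53.3% in WT for Atp6v0d2; the other isoform shares were added later too. Depth limits Neu1 and Atp6v1e1 most.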
